A study of Mus musculus with 6 samples.

Results

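The Hox genes of the 4 mouse clusters were examined in ectopic bone that BMP-2 had induced, in osteoblasts (OBs) isolated by cell sorting. The members were all listed genes whose symbol is Hox, a cluster letter from a to d, and a paralogue number, which gave 39 of the 23284 genes listed. All 39 were found in the GENCODE vM21 annotation of mm10. The HoxA cluster held 11 of them (chromosome 6, 52155590 to 52260880, minus strand), HoxB held 10 (chromosome 11, 96194316 to 96368256, plus strand), HoxC held 9 (chromosome 15, 102921103 to 103036852, plus strand) and HoxD held 9 (chromosome 2, 74668310 to 74765142, plus strand).

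The study asked how OBs change while ectopic bone forms, and compared cells taken on day 10 (n = 3) and day 14 (n = 3) after a collagen sponge with 2.5 μg BMP-2 was placed under the skin of the back. All mice were male Col2.3-ECFP animals of 12 to 16 weeks, in which a fragment of the type I collagen promoter drives cyan fluorescent protein, so cells were selected by the activity of that promoter. BMP-2 was given in both groups, and no group without BMP-2 or from another body site was analysed here. ECFP+ cells were sorted after dead and CD45+ cells had been gated out. The tissue was digested with collagenase for 1 round on day 10 and 2 rounds on day 14, so digestion and day cannot be told apart. The titles place all 3 later samples on day 14, whereas the free-text descriptions give days 14, 15 and 16 for replicates 1, 2 and 3. The labels call the samples biological replicates without naming the animals.

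Expression was given in FPKM, which scales the reads of a gene by transcript length and by the mapped reads of the sample and so can be set side by side between genes. Depth was estimated from the steps of the low values at 4526962 to 7743751 reads per sample, so that 3 reads on a Hox gene corresponded to between 0.129 and 1.02 FPKM, depending on transcript length and sample. All 12 OB markers were above 0 in every sample. The samples differed in other cell markers. The summed FPKM of 10 chondrocyte markers was 782 to 1618 on day 10, and 233, 2473 and 174 in day 14 replicates 1, 2 and 3. The sum of 12 myeloid markers was 46.1 to 178.7 on day 10, and 295, 21.5 and 678 in the same order on day 14, with Fcer1g, C1qa, C1qb and Adgre1 (listed as Emr1) at 0 in day 14 replicate 2. Over the 6 samples the sum of 8 endothelial markers was 1.75 to 6.74, that of 10 skeletal muscle markers 0.333 to 9.74, and that of 8 skin markers 32.2 to 243.7 FPKM.

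Hox genes encode transcription factors that bind DNA through a homeodomain and give cells a position along the head-to-tail axis. Within a cluster the genes lie in the order in which they are used along the body, with low paralogue numbers towards the head and high numbers towards the tail and the ends of the limbs. Mesenchymal cells of adult skin and bone are known to keep a Hox pattern of their site of origin, and Hox proteins bind DNA together with PBX, MEIS and PREP cofactors.

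The homeobox, the stretch of 180 bases that codes for the homeodomain, lay within 1 exon in all 39 genes. The homeoboxes of 7 genes are shown because the pattern of levels turns on them: Hoxb2 and its paralogue Hoxa2, the group 8 genes Hoxc8, Hoxd8 and Hoxb8, and the group 6 and 9 genes Hoxc6 and Hoxc9. They are mm10 sequences of GENCODE vM21 transcripts, 5′ to 3′ on the coding strand, at chr11:96352985-96353164 (plus), chr6:52163411-52163590 (minus), chr15:102992571-102992750 (plus), chr2:74706525-74706704 (plus), chr11:96284174-96284353 (plus), chr15:103010754-103010933 (plus) and chr15:102983930-102984109 (plus). Capitals mark the codons of the protein motif by which the homeoboxes were located, which belong to the recognition helix that contacts DNA.
Hoxb2: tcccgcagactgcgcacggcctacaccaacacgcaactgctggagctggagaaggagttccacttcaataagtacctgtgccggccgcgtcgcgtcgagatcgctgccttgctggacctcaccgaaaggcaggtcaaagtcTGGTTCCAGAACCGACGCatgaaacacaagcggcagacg
Hoxa2: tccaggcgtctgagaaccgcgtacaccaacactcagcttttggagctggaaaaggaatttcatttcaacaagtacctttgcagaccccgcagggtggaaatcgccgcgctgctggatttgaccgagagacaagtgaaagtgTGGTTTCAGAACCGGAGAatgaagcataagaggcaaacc
Hoxc8: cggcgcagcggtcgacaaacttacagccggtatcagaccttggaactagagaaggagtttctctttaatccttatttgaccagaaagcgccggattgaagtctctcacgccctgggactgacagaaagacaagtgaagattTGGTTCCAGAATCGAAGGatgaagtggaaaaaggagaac
Hoxd8: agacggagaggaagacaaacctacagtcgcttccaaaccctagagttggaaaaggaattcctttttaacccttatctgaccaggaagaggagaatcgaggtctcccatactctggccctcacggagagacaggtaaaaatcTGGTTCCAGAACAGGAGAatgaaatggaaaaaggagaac
Hoxb8: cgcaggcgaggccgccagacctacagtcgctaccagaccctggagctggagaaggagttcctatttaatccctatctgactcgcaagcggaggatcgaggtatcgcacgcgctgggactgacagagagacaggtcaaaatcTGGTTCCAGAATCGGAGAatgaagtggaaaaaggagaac
Hoxc6: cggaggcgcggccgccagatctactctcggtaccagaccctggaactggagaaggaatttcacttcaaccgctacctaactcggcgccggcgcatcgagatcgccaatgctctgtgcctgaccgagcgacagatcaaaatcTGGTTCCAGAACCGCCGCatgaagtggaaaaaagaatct
Hoxc9: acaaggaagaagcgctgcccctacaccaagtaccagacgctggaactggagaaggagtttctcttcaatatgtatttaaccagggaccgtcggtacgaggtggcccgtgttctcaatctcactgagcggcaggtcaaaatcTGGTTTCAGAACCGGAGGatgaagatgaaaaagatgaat

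Over the 741 pairs of the 39 homeoboxes, between 46.1% and 93.9% of the bases were identical, with a median of 61.1%. Hoxb2 and Hoxa2 differed at 46 bases (74.4% identical), Hoxc8 and Hoxd8 were 73.3% identical, and Hoxb8 was 80.0% identical to Hoxc8 and 80.6% to Hoxd8. The longest run of identical bases in any pair of homeoboxes was 52, shorter than the 75-base reads. Of the 39 genes, 22 held no 75-base window that also occurs in the transcripts of another gene, among them Hoxc8, Hoxd8, Hoxb8, Hoxc6, Hoxb7 and Hoxa5. Shared windows were found in 17 genes. Only exact matches were counted, so reads that map with mismatches between similar genes were not examined. Hoxb2 shared 25.2% of its windows with Hoxb3os, a noncoding transcript on the opposite strand, and Hoxa7 shared 17.9% with Hoxaas3, also opposite. No strand setting is given for the FPKM values, so reads of Hoxb2 and of Hoxb3os over these windows cannot be told apart.

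The highest Hox levels in the OBs lay in the middle of the clusters and, among the anterior genes, at Hoxb2. Of the 39 genes, 18 were above 0 in all 6 samples, 13 in 1 to 5 samples, and 8 (Hoxa6, Hoxa13, Hoxb13, Hoxc11, Hoxc12, Hoxd11, Hoxd12 and Hoxd13) were listed at 0 in every sample. A mean of at least 1 FPKM over the 6 samples was reached by 9 genes: Hoxb2, Hoxc8, Hoxd8, Hoxc6, Hoxc9, Hoxb7, Hoxc5, Hoxa7 and Hoxa5. With Hoxb2 set aside, these all belong to groups 5 to 9. On day 10 alone the anterior gene Hoxd1 also had a mean above 1 FPKM (1.36, against 0.438 on day 14). The highest paralogue group with such a gene was 7 in HoxA, 7 in HoxB, 9 in HoxC and 8 in HoxD.

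**Figure D1:**
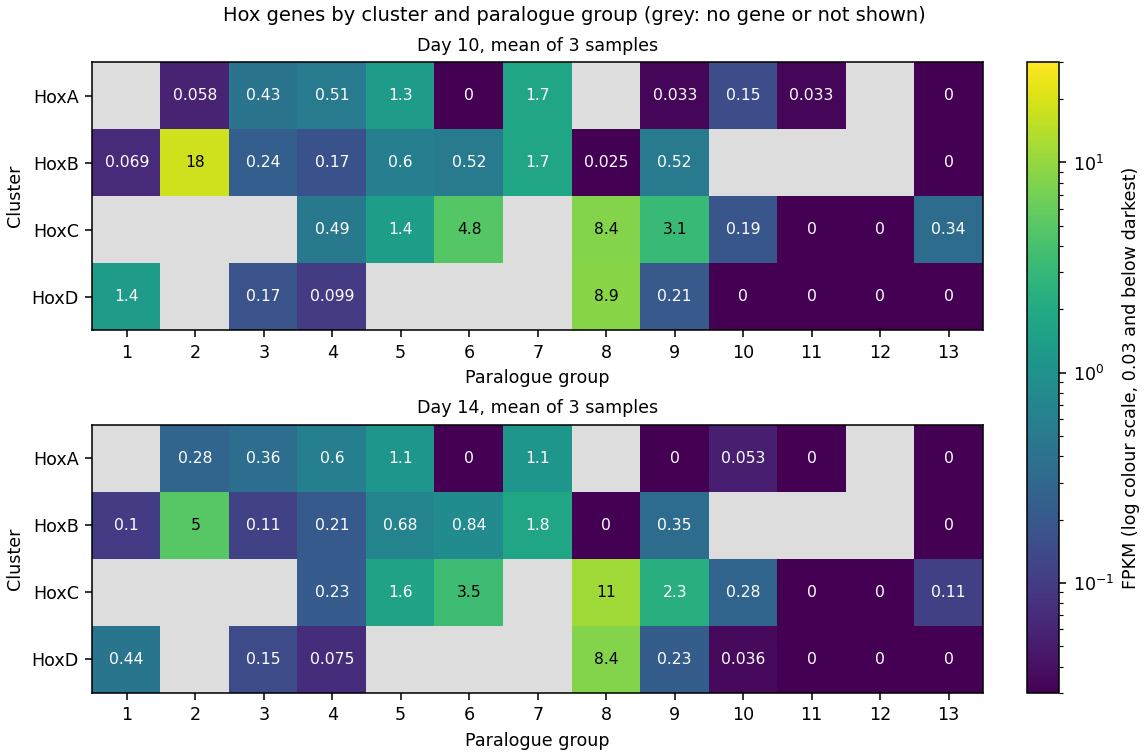
Mean FPKM of 38 Hox genes on day 10 (upper panel) and day 14 (lower panel), with clusters as rows, paralogue groups as columns, a logarithmic colour scale and grey where a cluster has no gene of that group or none is shown. Hoxb2 (18.3 and 5.0 FPKM), Hoxc8 (8.37 and 11.3 FPKM) and Hoxd8 (8.88 and 8.42 FPKM) stand above the other genes on both days.

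The central genes were led by the group 8 genes of 2 clusters. Hoxc8, which helps to pattern the thoracic skeleton, was at 6.32, 7.82 and 10.98 FPKM on day 10 and 14.2, 10.2 and 9.49 FPKM on day 14. The days overlapped, since day 10 replicate 3 lay above day 14 replicates 2 and 3, and the log2 fold change of 0.44 (SE 0.25) had an adjusted p of 0.618 from limma. Hoxd8 was at 7.89, 11.1 and 7.70 FPKM on day 10 and 8.45, 7.62 and 9.19 FPKM on day 14. Its values were interleaved between the days, with a log2 fold change of −0.06 (SE 0.20, adjusted p = 0.961 from limma). Hoxb8, the third member of group 8, was at 0.0745 FPKM in day 10 replicate 2, about 0.98 estimated reads, and listed at 0 in the other 5 samples, where 3 reads would have given 0.161 to 0.275 FPKM. Group 8 as a whole summed to 14.2, 18.9 and 18.7 FPKM on day 10 and 22.6, 17.8 and 18.7 FPKM on day 14.

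HoxC supplied most of the rest. Hoxc6 was at 4.86, 3.81 and 5.75 FPKM on day 10 and 2.53, 3.77 and 4.19 FPKM on day 14, with overlapping days and a log2 fold change of −0.46 (SE 0.28, adjusted p = 0.639 from limma). Hoxc9 was at 3.11, 3.25 and 3.06 FPKM on day 10 and 2.46, 2.01 and 2.43 FPKM on day 14. All 3 day 14 samples of Hoxc9 were below all day 10 samples, and the log2 fold change was −0.44 (SE 0.25, adjusted p = 0.614 from limma). Hoxc5 ranged from 1.12 to 1.94 FPKM and its days overlapped. The annotation of Hoxc5 includes a transcript that starts upstream of Hoxc9, and 94 of its windows are shared with Hoxc10.

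HoxA and HoxB were lower in this range. Hoxa7 was at 1.76, 1.77 and 1.69 FPKM on day 10 and 1.00, 1.16 and 1.22 FPKM on day 14. The 3 day 10 values of Hoxa7 had an SD of 0.0415 FPKM and lay above every day 14 value, with a log2 fold change of −0.59 (SE 0.32, adjusted p = 0.597 from limma), on 8.11 to 23.4 estimated reads. Hoxb7 ranged from 0.726 to 2.74 FPKM on day 10 and from 1.27 to 2.68 FPKM on day 14. Hoxa5, at 1.59, 0.979 and 1.38 FPKM and then 1.44, 1.41 and 0.508 FPKM, had its lowest value in day 14 replicate 3. Hoxa6, which lies between Hoxa5 and Hoxa7, was listed at 0 in all 6 samples. Its annotated transcript of 874 bases is short, and 3 reads would have given 0.596 to 1.02 FPKM, so the counts of 0 allow levels up to that.

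**Figure D2:**
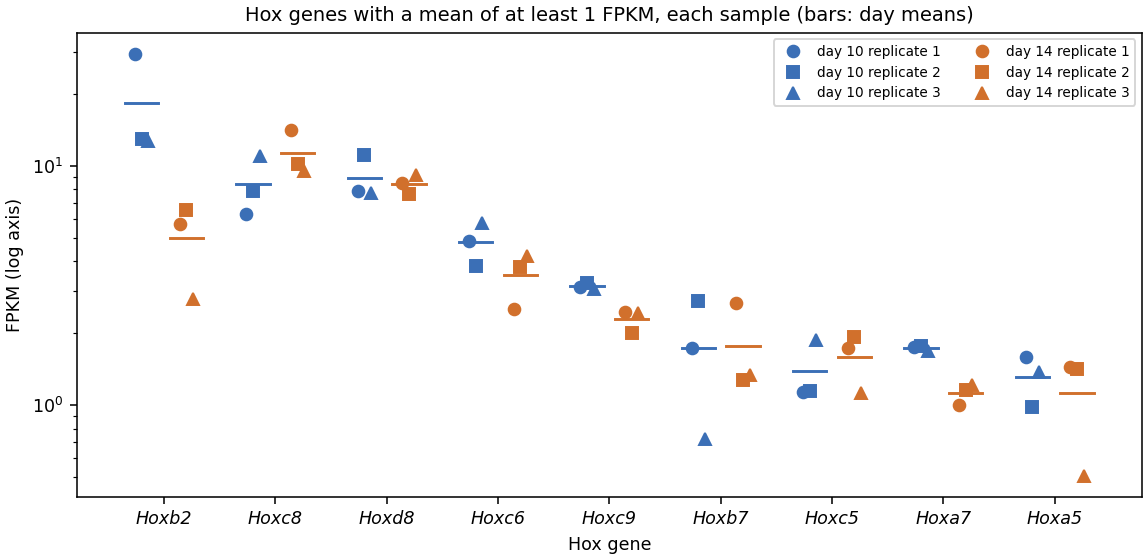
FPKM on a logarithmic axis for the 9 Hox genes with a mean of at least 1 FPKM, with circles, squares and triangles for replicates 1, 2 and 3, blue for day 10, orange for day 14 and short lines for the day means. The days do not overlap for Hoxb2, Hoxc9 and Hoxa7, with day 14 lower, and overlap for the other 6 genes. Over all genes tested, the days were separated with day 14 lower for 6.67% and higher for 7.59%.

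Between 0.1 and 1 FPKM lay 16 further genes, most of them on a few reads. In groups 4 to 6, Hoxa4 ranged from 0.0972 to 0.828 FPKM, Hoxb5 from 0 to 1.40 FPKM and Hoxb6 from 0.346 to 1.36 FPKM, each with overlapping days and with day 14 replicate 2 the highest for Hoxb5 and Hoxb6. Hoxb4 ranged from 0 to 0.357 FPKM. Hoxc4, the last gene at the anterior end of HoxC, was at 0.804, 0.307 and 0.361 FPKM on day 10 and 0.246, 0.190 and 0.239 FPKM on day 14, below every day 10 value, on at most 6.94 estimated reads (log2 fold change −0.77, SE 0.58, adjusted p = 0.732 from limma). In group 9, Hoxb9 ranged from 0.203 to 0.901 FPKM and Hoxd9 from 0 to 0.339 FPKM, both with overlapping days, and Hoxa9 was above 0 in 1 sample, at 0.0988 FPKM. Hoxc9 was the highest group 9 gene in every sample. Among the anterior genes, Hoxa3 ranged from 0.175 to 0.778 FPKM and Hoxd3 from 0 to 0.379 FPKM, the last with 59.1% of its windows shared with other genes. Hoxd4, at 0.0546 to 0.155 FPKM, had a mean under 0.1 FPKM and was not tested, though it was above 0 in every sample.

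Posterior genes, which pattern the lumbar to tail levels and the limbs, were at or near 0. Of the 12 genes of groups 10 to 13, 7 were listed at 0 in every sample, and the highest value of any of them was 0.593 FPKM (Hoxc10 in day 14 replicate 2). For the 8 genes listed at 0, 3 reads would have given between 0.168 and 1.02 FPKM. Hoxc13, known for its part in hair and nail, was the posterior gene seen in every sample, at 0.550, 0.245 and 0.231 FPKM on day 10 and 0.196, 0.0757 and 0.0636 FPKM on day 14. These values rest on about 6, 3 and 4 estimated reads on day 10 and 2, 1 and 1 on day 14. They did not overlap, with a log2 fold change of −1.04 (SE 0.65, adjusted p = 0.654 from limma).

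Anterior genes of groups 1 to 3 were represented mainly by Hoxb2, a gene best known for its role in the hindbrain. Hoxb2 (chromosome 11, 96350525 to 96354012, plus strand) was the highest of all 39 genes in each day 10 sample, at 29.4, 12.9 and 12.6 FPKM, and the third or the fourth in each day 14 sample, at 5.69, 6.52 and 2.79 FPKM. All day 14 values lay below all day 10 values, and day 10 replicate 1 was well above the other day 10 samples. About 203, 99.1 and 137 estimated reads stood behind the day 10 values and 36.2, 54.2 and 27.5 behind those of day 14. The mean was 18.3 ± 9.62 FPKM (SD, n = 3) on day 10 and 5.0 ± 1.96 FPKM on day 14. The fold from the means of log2(FPKM + 0.1) was 3.54, with day 14 lower.

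The log2 fold change of Hoxb2 was −1.82 (SE 0.41), with an unadjusted p of 0.00189 and an adjusted p of 0.297 from limma, so it did not pass the test over all genes. The exact permutation test gave p = 0.1, the smallest that 3 samples against 3 can give. In bulk samples, fewer cells of a type and less RNA per cell cannot be told apart. The sum of the 12 OB markers was 43390 to 85956 FPKM on day 10 and 28627 to 63684 FPKM on day 14. At an unadjusted p under 0.05 (limma), 4 of the 12 were lower on day 14 and 0 were higher. Among 10 chondrocyte markers, 3 were lower and 0 were higher at that threshold. Over all genes tested the shares were 4.4% lower and 5.6% higher. The median log2 fold change was −1.25 for the OB markers and −2.02 for the chondrocyte markers. The skeletal muscle sum was highest in day 10 replicate 1 (9.74 FPKM, of which Acta1 gave 8.33, against 0.333 to 1.78 in the other samples), where Hoxb2 was highest, and the skin sum was highest in day 14 replicate 3 (243.7 FPKM against 32.2 to 89.5), where Hoxb2 was lowest. The myeloid sum was also highest in day 14 replicate 3 (678 FPKM), and the OB and chondrocyte sums were lowest there. The OB sum was highest in day 10 replicate 2. The chondrocyte sum was highest in day 14 replicate 2 and the endothelial sum in day 14 replicate 1. The part of the marker levels in the Hoxb2 result was not tested. Chondrocyte and myeloid marker sums moved between the day 14 samples as given above, and without day 14 replicate 2 the log2 fold change of Hoxb2 was −2.05, and without day 14 replicate 3 it was −1.46. Without day 10 replicate 1, the sample with the highest value, it was −1.42.

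The genes around Hoxb2 were low. Hoxb1, the next gene of the cluster on one side, did not exceed 0.234 FPKM, and Hoxb3, on the other, ranged from 0.0911 to 0.292 FPKM with 50.5% of its windows shared with Hoxb3os. Hoxb3os itself was not found among the genes listed, under that symbol or an older one, so it has no value here. The paralogue Hoxa2 was at 0, 0 and 0.174 FPKM on day 10 and 0.297, 0.457 and 0.0960 FPKM on day 14, on at most 4.20 estimated reads. The days of Hoxa2 overlapped, with a log2 fold change of 1.33 (SE 0.78, adjusted p = 0.625 from limma). Hoxd1, named after its values were seen, was at 1.97, 1.32 and 0.776 FPKM on day 10 and 0.397, 0.917 and 0 FPKM on day 14. Its days overlapped, since day 14 replicate 2 lay above day 10 replicate 3, and the log2 fold change of −1.89 (SE 0.85) had an adjusted p of 0.511 from limma.

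Summed over all 39 genes, Hox expression was 65.5, 52.8 and 51.1 FPKM on day 10 and 46.0, 43.7 and 35.1 FPKM on day 14. Most of that difference was carried by Hoxb2: the other 38 genes summed to 36.1, 39.9 and 38.5 FPKM and to 40.3, 37.1 and 32.3 FPKM, with overlapping days. Groups 4 to 8 summed to 28.3, 32.1 and 31.6 FPKM on day 10 and 34.9, 31.4 and 28.1 FPKM on day 14. Groups 9 to 13 summed to 4.96, 4.68 and 4.20 FPKM and to 3.39, 3.34 and 3.34 FPKM, without overlap. HoxB made up 51.4%, 33.6% and 29.6% of the Hox FPKM on day 10 and 24.1%, 25.7% and 13.9% on day 14, and without Hoxb2 the HoxB sums were 4.25, 4.85 and 2.503 FPKM and 5.38, 4.70 and 2.11 FPKM. HoxA summed to between 2.77 and 5.26 FPKM, HoxC to between 16.8 and 22.4 FPKM, and HoxD to between 9.02 and 12.8 FPKM over the 6 samples. These sums are descriptions and were given no test.

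**Figure D3:**
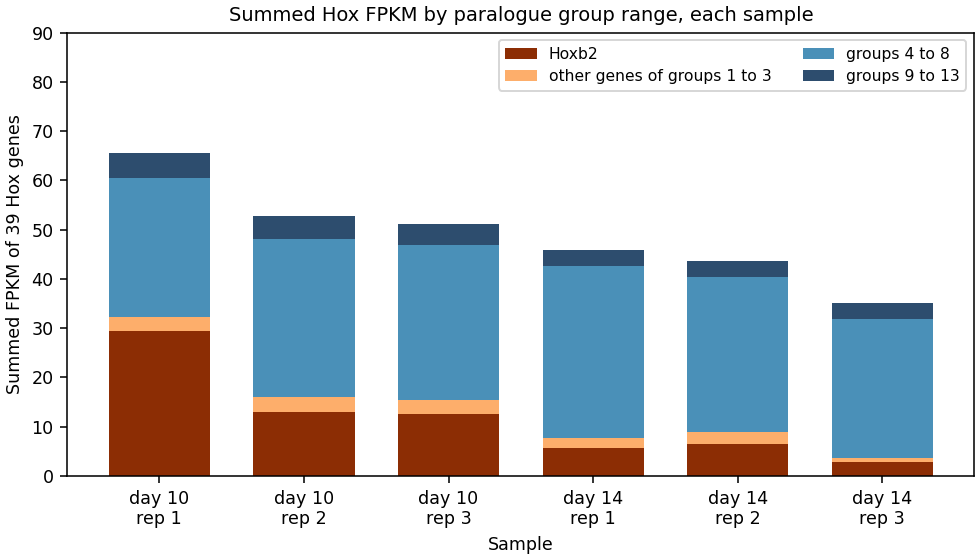
Stacked bars of the summed FPKM of the 39 Hox genes in each sample, split into Hoxb2, the other genes of groups 1 to 3, groups 4 to 8 and groups 9 to 13. The Hoxb2 segment is 12.6 to 29.4 FPKM on day 10 and 2.79 to 6.52 FPKM on day 14, while the segment of groups 4 to 8 stays between 28.1 and 34.9 FPKM.

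Of the 39 genes, 25 had a mean above 0.1 FPKM and entered the comparison of day 14 with day 10. No Hox gene had an adjusted p under 0.05 from limma, against 0.0154% of the 19526 genes tested (3 genes), and the smallest adjusted p of a Hox gene was 0.297. At an unadjusted p under 0.05 there was 1 Hox gene, Hoxb2, which was lower, beside the same shares of 4.4% lower and 5.6% higher among all genes. Differences over 2-fold were seen for 3 genes that were lower on day 14 (Hoxb2, Hoxc13 and Hoxd1), against 8.39% of all genes, and for 1 that was higher (Hoxa2), against 5.25%. The days were separated with day 14 lower for 5 genes (Hoxa7, Hoxb2, Hoxc4, Hoxc9 and Hoxc13), against 6.67% of all genes, and with day 14 higher for 0, against 7.59%. The mean of the log values was lower on day 14 for 16 of the 25 genes, against 53.5% of all genes tested. The median log2 fold change was −0.31 over the 25 Hox genes and −0.04 over all genes tested. Without day 14 replicate 3 the Hox median was 0.11, with quantile normalization it was −0.07, and with a pseudocount of 1 it was −0.06.

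**Figure D4:**
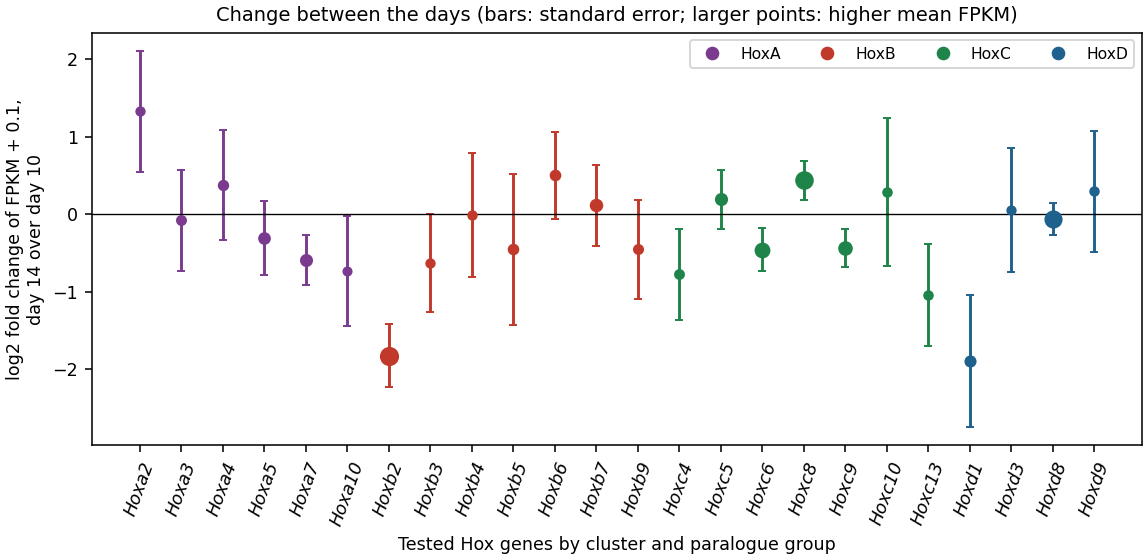
Log2 fold change of FPKM + 0.1, day 14 over day 10, for 24 of the 25 tested Hox genes in order of cluster and paralogue group, with standard errors as bars, colours for clusters and larger points for higher mean FPKM. Hoxb2 is at −1.82, while the similarly abundant Hoxc8 and Hoxd8 are at 0.44 and −0.06.

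The cofactors that bind DNA with Hox proteins were present on both days. Of 11 genes of the PBX, MEIS, PREP and TGIF families, 9 had a mean of at least 1 FPKM. Meis3 was at 21.3, 17.8 and 16.2 FPKM on day 10 and 14.9, 18.8 and 10.1 FPKM on day 14, with overlapping days. Pknox1, which encodes PREP1, ranged from 5.24 to 7.15 FPKM, and Pbx3, Meis1 and Meis2 ranged from 1.31 to 4.01 FPKM. Tgif1, a repressor related to these cofactors, was at 28.7, 31.3 and 29.5 FPKM on day 10 and 38.4, 58.9 and 43.8 FPKM on day 14. It was the 1 cofactor with an unadjusted p under 0.05, against 5.6% of all genes higher (log2 fold change 0.63, adjusted p = 0.337 from limma), and its days did not overlap. The median log2 fold change of the 11 genes was 0.22.

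Chromatin regulators and retinoic acid genes are the known upstream systems of Hox clusters, the first keeping them silent or active and the second acting as a signal that opens them in order. Of 34 Polycomb and Trithorax genes tested, an unadjusted p under 0.05 was reached by 1 that was higher on day 14 (Kdm6b, a demethylase of the Polycomb mark, log2 fold change 0.78, adjusted p = 0.473 from limma) and 2 that were lower (Ash2l and Phc1), against 5.6% higher and 4.4% lower among all genes tested. The median of these 34 was −0.13. Of 17 retinoic acid genes tested, 2 were higher and 1 was lower at that threshold, beside the same 5.6% and 4.4%, with a median of 0.49. Aldh1a1, which makes retinoic acid, was at 3.91, 4.78 and 8.51 FPKM on day 10 and 18.1, 12.7 and 17.8 FPKM on day 14. All day 14 values of Aldh1a1 lay above all day 10 values (log2 fold change 1.54, adjusted p = 0.292 from limma). Dhrs3, which turns retinaldehyde back to retinol, had a log2 fold change of 0.37, and Crabp1, a retinoic acid binding protein, one of −2.55 (adjusted p = 0.481 and 0.405 from limma).

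Noncoding genes of the clusters and the genes at their borders differed from each other in level. Of 10 cluster noncoding genes listed, 1 was tested: Hoxd3os1 (listed as 1700109F18Rik), at 2.09, 1.24 and 2.19 FPKM on day 10 and 1.87, 0.575 and 0.483 FPKM on day 14. Hotair, which lies in HoxC, reached at most 0.304 FPKM, and the 6 microRNA hairpin genes were listed at 0. These hairpins are shorter than the estimated fragment length of 225 bases, so the values of 0 give no measure of their level. Of the border genes, Skap2 and Hibadh beside HoxA ranged from 24.8 to 38.6 FPKM, and Mtx2 beside HoxD from 24.8 to 35.0 FPKM. Evx1 and Evx2, the homeobox genes at the posterior ends of HoxA and HoxD, did not exceed 0.0764 FPKM. None of the 8 border genes tested had an unadjusted p under 0.05 from limma.

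Homeobox and T-box genes outside the clusters spanned a wide range of levels, and those named here are part of a list of 43. Of the 43, 21 had a mean of at least 1 FPKM and 4 were at 0 in every sample. The genes given here by level were not all picked by a rule set beforehand. Whether their levels mark a body site was not tested, since samples of other sites were lacking. Tbx15, a gene of the trunk dermis and skeleton, ranged from 18.6 to 33.6 FPKM, and Prrx1, a limb and skin mesenchyme gene, from 20.8 to 33.6 FPKM. Tbx18 ranged from 4.10 to 6.74 FPKM and En1 from 1.86 to 3.74 FPKM. The hindlimb gene Pitx1 was listed at 0, Tbx4 did not exceed 0.159 FPKM, and the forelimb gene Tbx5 ranged from 0.117 to 0.328 FPKM. Of 31 such genes tested, 4 had an unadjusted p under 0.05, all lower on day 14 and Dlx3, Dlx5 and Irx5 among them, against 4.4% of all genes lower and 5.6% higher, and the median log2 fold change was 0.13.

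By order of samples, Hoxb2 ran from day 10 replicates 1, 2 and 3 down to day 14 replicates 2, 1 and 3. The same order was found in 124 of the 19526 genes tested (0.635%), and no other Hox gene had it. Among the genes of the lists that had it were Sp7, Dlx3 and Cbx2, which were picked out after their values were seen, so the likeness is a description over 6 samples. Sp7, the transcription factor that commits cells to the OB lineage, was at 73.7, 51.1 and 40.1 FPKM on day 10 and 9.79, 27.9 and 4.09 FPKM on day 14. Dlx3, a homeobox gene of OBs and skin, was at 14.9, 8.04 and 5.03 FPKM and then 1.55, 2.88 and 0.590 FPKM. The log2 fold changes of Sp7 and Dlx3 were −2.34 and −2.51, with adjusted p of 0.309 and 0.298 from limma.

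**Figure D5:**
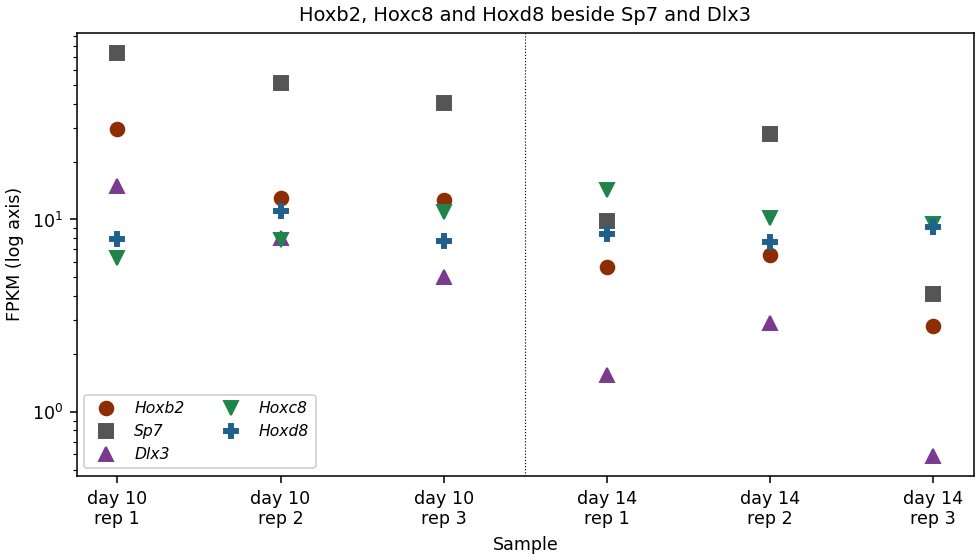
FPKM on a logarithmic axis in each sample for Hoxb2, Hoxc8 and Hoxd8 and for Sp7 and Dlx3, with day 10 samples left and day 14 samples right of the dotted line. Hoxb2, Sp7 and Dlx3 are lowest in day 14 replicate 3, where Hoxc8 and Hoxd8 are at 9.49 and 9.19 FPKM. Sp7 and Dlx3 were picked for having the sample order of Hoxb2, so their shared lowest sample follows from that choice.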

How the data were processed

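RNA of ECFP+ OBs from 3 day 10 and 3 day 14 samples was sequenced as 75-base single-end reads. The authors mapped the reads to mm10 with TopHat2 2.0.13, Bowtie2 2.2.3 and SAMtools 0.1.19 and deposited FPKM per gene and sample from Cufflinks 2.2.1, which divides by transcript length and by mapped reads. The gene annotation, the strand setting and the handling of reads shared by several genes are not given in the sources used here. In 1 file, 25 symbols stored as dates were restored by position.

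Day 14 was set against day 10 with log2(FPKM + 0.1) values in the moderated linear model of limma 3.58.1 (R 4.3.3) with a mean-variance trend. The fit covered 19526 genes whose mean exceeded 0.1 FPKM, with day as the factor and Benjamini-Hochberg adjustment over all of them. The pseudocount pulls fold changes of low genes towards 0. Exact permutation tests were two-sided. Since the sources do not say that the 3 samples of a day came from separate animals, p-values measure the spread between these samples. Read numbers were estimated from 1977 genes with a single transcript, at a fragment length of 225 bases. Between 74.5% and 79.3% of low values came out within 0.1 of whole reads, and of the Hox values under 10 reads 70 of 99 did. Floors of 3 reads cover counting error only. Homeoboxes were located by their conserved motif in the coding sequences of GENCODE vM21. Windows of 75 bases were compared with all GENCODE vM21 transcripts, counting exact matches only. The comparison was also run on simulated data with normal noise. Its outcome is not reported here, so the size of change that the comparison could detect is not given.

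The members and gene lists were chosen with earlier results of these data known. Values in every sample were given for Hox genes with a mean of at least 1 FPKM, an unadjusted p under 0.05, or separated days with a fold over 2, and for up to 4 genes of a list. Values of some genes are not reported here. Hoxd1, Hoxa2 and single values of other Hox genes were added after their values were seen. Alternatives were other pseudocounts, filters, scalings and variance models, the replicate number as a block, and leaving out each sample.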

Additional observations from a re-analysis of the deposited data

How the results depend on the processing

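No Hox gene reached an adjusted p under 0.05 from limma in any of the 14 alternatives. Hoxb2 kept an unadjusted p under 0.05 in all 14, with log2 fold changes of −2.05 to −1.42 and adjusted p of 0.102 to 0.968. The count of Hox genes with an unadjusted p under 0.05, 1 in the comparison as reported, was 2 with a pseudocount of 1 (Hoxd1 added), 2 with quantile normalization (Hoxd1), 3 without the trend (Hoxa7 and Hoxc13), and 1 to 2 when single samples were left out (2 without day 10 replicate 3, adding Hoxc8, and 2 without day 14 replicate 2, adding Hoxd1). The count over 2-fold, 4 as reported, was 7 with a pseudocount of 0.01, 1 with a pseudocount of 1, 1 with a mean above 1 FPKM, where 9 Hox genes were tested, and 2 to 5 when single samples were left out, with 2 without day 14 replicate 3. The shares of all genes at an unadjusted p under 0.05 and over 2-fold are not given here for the alternatives. The Hox counts in the alternatives therefore cannot be set against all genes. The median log2 fold change of the Hox genes ranged from −0.45 to 0.11, with 0.11 without day 14 replicate 3. The direction turned for Hoxa5 (−0.54 to 0.13 when single samples were left out, 0.13 without day 14 replicate 3), Hoxb7 (−0.37 to 0.52, −0.37 without day 10 replicate 3 and −0.21 without day 14 replicate 1) and Hoxd8 (−0.15 to 0.11, 0.11 without day 10 replicate 2 and 0.01 without day 14 replicate 2). The cause was not tested. With the replicate number as a block the count at an unadjusted p under 0.05 was 2 (Hoxb2 and Hoxd1). The deviations of same-numbered samples correlated at 0.058, −0.0058 and 0.089 across genes. Whether same-numbered samples shared a preparation was not tested. Over all genes, 3 had an adjusted p under 0.05, 2 to 6 did in the other alternatives, and 76 without day 14 replicate 2. At the depth of these libraries, 6 Hox genes had at least 10 estimated reads in every sample, which limits the values of the others.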
